A study of Homo sapiens with 6 samples.

Results

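The genes described are the transcriptional coactivators YAP1 and WWTR1 (which encodes TAZ), their DNA-binding partners TEAD1, TEAD2, TEAD3 and TEAD4, and 4 direct target genes, CYR61, CTGF, ANKRD1 and AMOTL2. They were taken by symbol from a table of counts, which gave 10 of 54261 gene rows, and all 10 were expressed enough to be tested. The table holds total RNA of 786-O, an established line of human clear-cell renal carcinoma cells that serves as the control, and of 7R, a derivative of 786-O labelled resistant to sunitinib, an inhibitor of VEGF, PDGF and related receptor kinases. Each line was sequenced as 3 libraries. The labels do not state if sunitinib was present at harvest, if 7R is a clone, or if each library had its own culture, so a p-value here measures only the spread among these libraries, and part of that spread may be technical.

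YAP1 and TAZ have no DNA-binding domain of their own and reach their target genes mainly through TEAD factors. In the Hippo pathway the kinases STK3 and STK4, with SAV1, activate LATS1 and LATS2, which phosphorylate YAP1 and TAZ so that 14-3-3 proteins hold them in the cytoplasm or they are degraded. That control acts on protein, so RNA levels measure the supply of the components and the level of the target transcripts, not the location of YAP1 or TAZ. CYR61 and CTGF encode secreted matricellular proteins of the CCN family, ANKRD1 an ankyrin-repeat protein of muscle and stressed cells, and AMOTL2 an angiomotin that binds YAP1.

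The libraries held between 37919629 and 52221491 counts, and 16642 genes were tested. Levels are in CPM, which are counts relative to the library's total after TMM scaling, in which 3 counts, the most that a count of 0 allows for counting error, equal between 0.0662 and 0.0706 CPM. Resistant replicate 1 stood apart from the other resistant libraries, as its counts differed from theirs by a chi-square of 62.9 and 60.1 per degree of freedom, compared with 8.94 between those. Control replicate 1 also differed more from the other control libraries (26.5 and 35.5) than these did from each other (12.4), and 49 genes with at least 5 counts in every other library were at 0 in it. The fold change of a gene was related to the GC content of its transcripts (Spearman rho -0.69 across 14216 genes, which are no replicates). When genes were ordered by GC and cut into 10 equal bins, the median log2 fold change was 1.32 in the bin with the least GC and -1.35 in the bin with the most. GC content also separated libraries of 1 line (rho between -0.54 and 0.50 for pairs). Each member is therefore given on the TMM scale and again after an adjustment for GC content and transcript length, which brought the correlation with GC to 0. Summed levels of 10 markers of the labelled renal carcinoma cells were 12800 to 14000 CPM in control and 3830 to 4690 CPM in resistant libraries, with EPCAM at 3 counts or fewer. Most of this sum came from 1 gene, and the markers did not all move in the same direction. KRT8 averaged 1608 CPM in control and 415 CPM in resistant libraries, KRT18 792 and 295 CPM, and PAX8 544 and 407 CPM. EPAS1 (137 and 53.7 CPM), PAX2 (51.0 and 23.8 CPM) and KRT7 (2.38 and 1.03 CPM) averaged lower as well. CDH2 was higher, with 380 and 424 CPM, and CDH6 averaged 107 and 126 CPM with overlap between the lines. The extraction text names a brain region. Summed over 12 brain markers the level was 32.7 to 35.6 CPM in control and 53.1 to 60.3 CPM in resistant libraries, and MOG, NEUROD6 and GAD2 were at 0 in all 6. The sum was mostly MBP, which averaged 25.1 CPM in control and 39.4 CPM in resistant libraries. SNAP25 averaged 3.32 CPM in control and 12.9 CPM in resistant libraries, and SYT1 0.405 and 2.29 CPM. AQP4 was at 0 in control and averaged 0.358 CPM in resistant libraries. GAD1 went the other way, with 4.27 and 1.86 CPM, and GFAP had 8 counts or fewer in every library. Among leukocyte markers PTPRC and CD3E were at 0 in all libraries, and the summed level, mostly CD68, was 39.8 to 46.5 CPM in control and 8.26 to 9.92 CPM in resistant libraries. Summed levels of 6 fibroblast markers were 5.22 to 6.93 CPM in control, mostly COL1A1, and 19.9 to 43 CPM in resistant libraries, mostly LUM, and those of 6 endothelial markers were 0.545 to 1.13 and 2.31 to 2.92 CPM. The part of these markers in the results below was not tested.

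On the TMM scale 9 of the 10 members passed edgeR's quasi-likelihood test at an adjusted p of 0.05, beside 76.2% of all tested genes. YAP1 and TEAD1 were higher in resistant cells, in a comparison that called 39.3% of all genes higher. WWTR1, TEAD2, TEAD3, TEAD4, CYR61, CTGF and AMOTL2 were lower, beside 36.9% of all genes, and ANKRD1 did not pass. The 3 members with a GC content under 50% had positive fold changes and the 7 above it negative ones. For 9 of the 10 members the libraries of the lines did not overlap, beside 80.3% of all genes. After adjustment for GC content and length the groups did not overlap for 8 members (71.0% of all genes), and 8 passed the test (65.8% of all genes). Of these 4 were called higher (35.3% of all genes) and 4 lower (30.5%). The calls that held in both were the increases of YAP1 and TEAD1 and the decreases of TEAD2, TEAD4 and CYR61. WWTR1 and TEAD3 turned from lower to higher, CTGF and AMOTL2 lost their call, and ANKRD1 became lower. With library size as the only scaling, 3 members were higher (47.2% of all genes) and 5 lower (28.4%). Without control replicate 1 the TMM counts were again 2 higher and 7 lower. Without resistant replicate 1 they were also 2 and 7, and the adjusted counts were 3 and 5, since TEAD1 lost its call and AMOTL2 gained one.

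**Figure D1:**
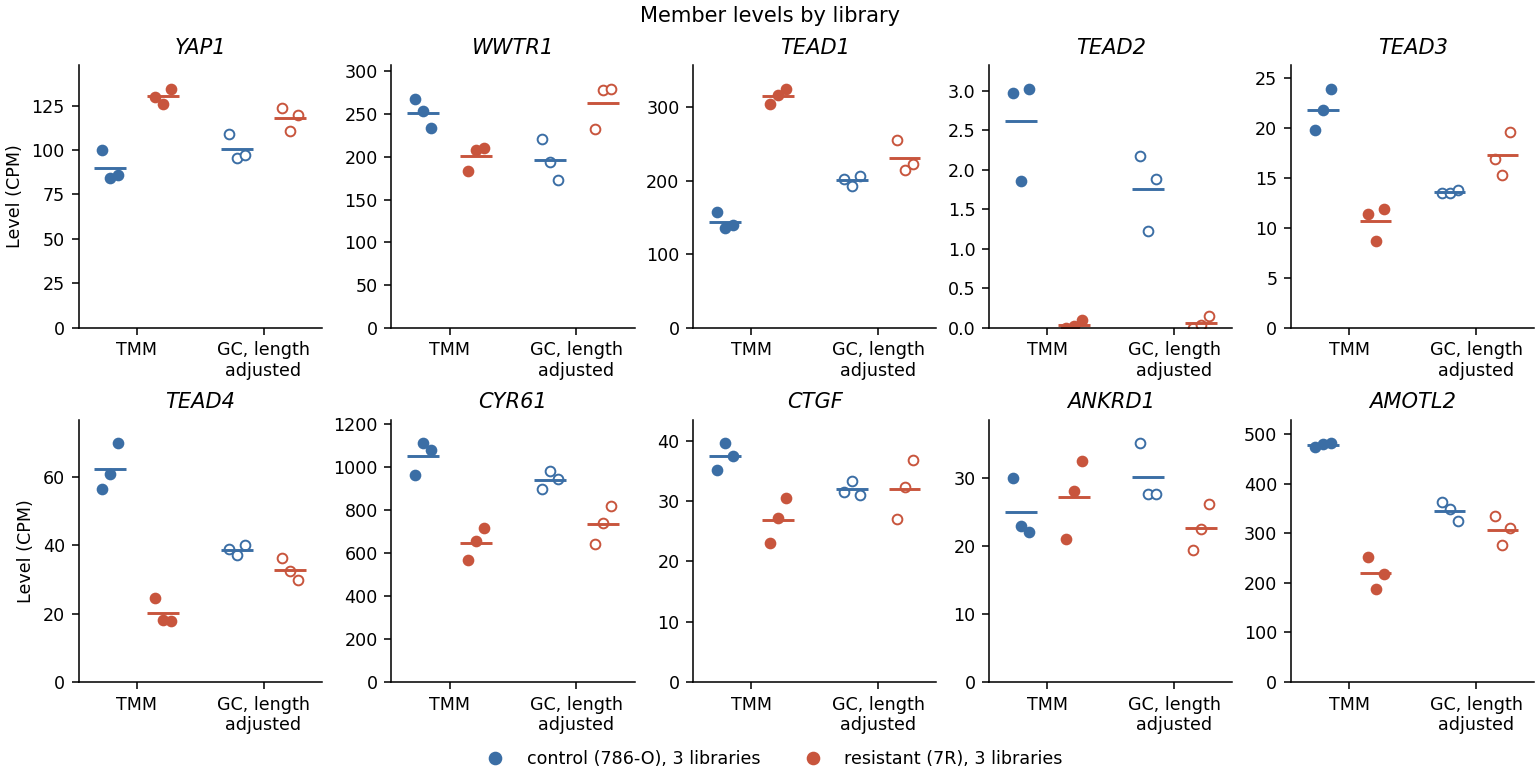
Level of each member in each library, in CPM on the TMM scale (left in each panel) and after GC content and length adjustment (right). Points are single libraries, bars are means of 3, and each vertical axis starts at 0. On the TMM scale the control and resistant libraries overlap for ANKRD1 and for no other member. After adjustment they overlap for CTGF and AMOTL2.

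YAP1 transcripts stood at 99.8, 84.2 and 85.7 CPM in the control libraries and at 130.1, 126.0 and 134.3 CPM in the resistant ones. Every resistant library was above every control library. The log2 fold change was 0.53 ± 0.11 (SE; adjusted p = 0.000545, edgeR), and after GC and length adjustment it was 0.23 ± 0.08 (adjusted p = 0.0247). YAP1 was thus higher on both scales, with the smaller difference after adjustment. YAP1P1, YAP1P2 and YAP1P3, named as pseudogenes of YAP1, held 0 counts in every library, so no reads were split off to them in the table.

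WWTR1, which encodes the paralogue TAZ, was the more abundant coactivator RNA per transcript length in both lines. Its level was 267, 254 and 234 CPM in control and 184, 208 and 210.4 CPM in resistant libraries, and the groups did not overlap. It was lower in resistant cells on the TMM scale (log2 fold change -0.33 ± 0.10, adjusted p = 0.0116, edgeR). After GC and length adjustment it was higher, with a log2 fold change of 0.43 ± 0.10 (adjusted p = 0.00317), and with library size as the only scaling the value was 0.014 (adjusted p = 0.908). The direction for WWTR1 therefore depends on the scaling. WWTR1-AS1, an antisense RNA whose exons overlap those of WWTR1 by 627 bases in GENCODE release 29, had 82, 103 and 134 counts in control and 34, 12 and 15 in resistant libraries. It was lower on both scales (log2 fold change -2.33 ± 0.39, adjusted p = 0.000168, edgeR, and -1.09 after adjustment, adjusted p = 0.0179), and at -2.92 on the TMM scale without resistant replicate 1. Whether counting used strand is not given in the sources used here. Reads from the overlapping stretch cannot be told apart.

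Per kilobase of transcript, the ratio of YAP1 to WWTR1 was 0.205, 0.182 and 0.201 in control and 0.388, 0.333 and 0.350 in resistant libraries. The ratio was 1.82-fold higher in resistant libraries, and the groups did not overlap (exact permutation test, two-sided p = 0.1, the smallest that 3 against 3 libraries can give). On GC and length adjusted levels it was 0.283 ± 0.022 (SD, n = 3) in control and 0.248 ± 0.038 in resistant libraries, and the groups overlapped (exact permutation p = 0.3). Summed per kilobase of median transcript, YAP1 and WWTR1 together reached 143.0 ± 9.8 CPM (SD, n = 3) in control and 129 ± 7.2 CPM in resistant libraries. The groups overlapped. Longest transcripts as the length gave 66.6 ± 4.7 and 64.0 ± 3.1 CPM, also with overlap. After adjustment, with median lengths, the sum was 119 ± 13.3 CPM in control and 156 ± 11.5 CPM in resistant libraries.

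The TEAD factors bind DNA and have little transcriptional activity without a coactivator. TEAD1 was at 158, 136 and 139 CPM in control and at 305, 316 and 324 CPM in resistant libraries. All resistant libraries lay above all control libraries. The log2 fold change was 1.13 ± 0.10 (adjusted p = 9.98e-07, edgeR), a 2.19-fold increase. Of all tested genes, 27.0% were called higher by at least 2-fold. After GC and length adjustment the increase was 1.15-fold (log2 fold change 0.21 ± 0.08, adjusted p = 0.0408), and without resistant replicate 1 it was 0.12 on the log2 scale (adjusted p = 0.0819). TEAD1 has the lowest GC content of the members, 41.3%.

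TEAD4 was at 56.6, 60.9 and 69.9 CPM in control and at 24.5, 18.3 and 18.01 CPM in resistant libraries, with no overlap. Its log2 fold change was -1.62 ± 0.14 (adjusted p = 1.0e-06, edgeR), a 3.08-fold lower level, and after adjustment -0.23 ± 0.09 (adjusted p = 0.0366). TEAD4 was thus lower on both scales, and most of the size of the difference moved with the adjustment. TEAD3 was at 19.8, 21.8 and 23.9 CPM in control and at 11.4, 8.66 and 11.9 CPM in resistant libraries. All 3 resistant libraries lay below the control range, and the log2 fold change was -1.04 ± 0.15 (adjusted p = 4.3e-05, edgeR). After adjustment TEAD3 was higher in resistant libraries (0.34 ± 0.11, adjusted p = 0.0154), with levels of 13.6 ± 0.13 CPM (SD, n = 3) in control and 17.3 ± 2.2 CPM in resistant libraries. With a GC content of 61.0%, TEAD3 is the most GC-rich member.

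TEAD2 had the largest fold change of the 10 members on either scale. It had 131, 81 and 137 counts in the control libraries and 0, 1 and 4 in the resistant ones. Control cells thus held a low level of TEAD2 RNA, 2.62 ± 0.66 CPM (SD, n = 3), and resistant cells held a level at or near the limit of counting. The ratio of the summed counts, scaled by library, was 67.6 (exact 95% interval 28.7 to 209.5, for counting error only). The edgeR log2 fold change was -5.97 ± 0.58 (adjusted p = 1.89e-06), and -4.83 ± 0.61 after GC and length adjustment (adjusted p = 2.92e-05). A fitted value of this size rests on the prior count as well as on the 5 resistant counts, and without resistant replicate 3 it was -7.50. Among all tested genes, 22.4% were called lower by at least 2-fold on the TMM scale and 8.69% after adjustment. In bulk RNA, fewer cells with the transcript and less of it per cell cannot be told apart.

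Divided by median transcript length, TEAD1 made up 53.7%, 48.3% and 45.5% of TEAD transcripts in the control libraries and 83.3%, 87.4% and 86.8% in the resistant ones. The TEAD4 share was 39.8% ± 3.5 (SD, n = 3) in control and 10.3% ± 1.9 in resistant libraries, the TEAD3 share 9.79% ± 0.80 and 3.81% ± 0.58, and the TEAD2 share 1.26% ± 0.28 and 0.0149% ± 0.0185. With median lengths and no adjustment, TEAD1 and TEAD4 thus stood at similar levels in control libraries, and TEAD1 made up most of the resistant ones. For each share the groups did not overlap (exact permutation test, two-sided p = 0.1, the smallest possible here). On adjusted levels the TEAD1 share was 68.3% ± 0.1 in control and 73.2% ± 0.6 in resistant libraries, and the TEAD4 share 24.7% ± 0.1 and 19.5% ± 1.1. For these 2 genes the order of the groups was the same and the difference was smaller. The TEAD3 share turned, with 6.11% ± 0.19 in control and 7.24% ± 1.08 in resistant libraries after adjustment and no overlap. The TEAD1 to TEAD4 ratio per kilobase was 1.25 ± 0.22 in control and 8.50 ± 1.62 in resistant libraries, or 2.76 ± 0.01 and 3.76 ± 0.23 after adjustment. With the longest transcript as the length, the TEAD1 share was 27.4% in control and 70.5% in resistant libraries, so the share within a line depends on which transcripts are assumed. The summed TEAD level per kilobase was 95.8 ± 4.0 CPM in control and 120 ± 2.0 CPM in resistant libraries with median lengths. With the longest transcripts it was 62.4 ± 4.0 and 52.8 ± 1.6 CPM, in the opposite order. After adjustment the sum was 95.6 ± 3.5 CPM in control and 102.9 ± 8.6 CPM in resistant libraries with median lengths. The adjusted values with the longest transcripts were 51.8 ± 1.9 and 52.5 ± 4.1 CPM.

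**Figure D2:**
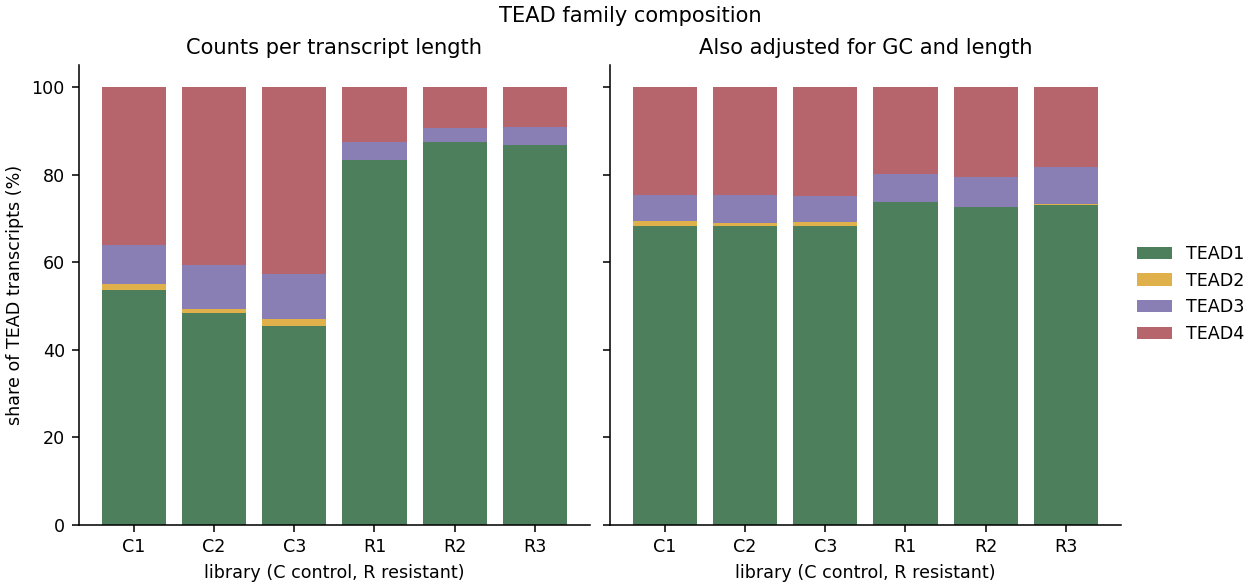
Share of each TEAD gene among TEAD transcripts (percent) in each library, from levels divided by median transcript length, on the TMM scale (left) and after GC content and length adjustment (right). On the TMM scale TEAD1 makes up 45.5% to 53.7% in control libraries and 83.3% to 87.4% in resistant libraries. After adjustment its mean is 68.3% in control and 73.2% in resistant libraries.

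The promoters of the target genes are shown because TEAD factors bind the letters GGAATG, or CATTCC on the other strand, and because these genes are described as direct TEAD targets. RefSeq promoter windows on GRCh38.p14, from 250 bases before to 50 bases after an annotated start, were found for 7 of the 10 members, CTGF under its newer symbol CCN2. TEAD1, TEAD4 and CYR61 had no entry. The windows below are printed 5′ to 3′ on the strand of the gene with each match to GGAATG or CATTCC in capitals.
CTGF: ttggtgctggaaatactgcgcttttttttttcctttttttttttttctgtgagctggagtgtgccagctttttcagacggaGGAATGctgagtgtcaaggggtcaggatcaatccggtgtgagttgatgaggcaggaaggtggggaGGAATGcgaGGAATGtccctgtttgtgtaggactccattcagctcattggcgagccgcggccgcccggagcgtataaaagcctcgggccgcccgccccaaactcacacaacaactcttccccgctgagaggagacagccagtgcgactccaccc
ANKRD1: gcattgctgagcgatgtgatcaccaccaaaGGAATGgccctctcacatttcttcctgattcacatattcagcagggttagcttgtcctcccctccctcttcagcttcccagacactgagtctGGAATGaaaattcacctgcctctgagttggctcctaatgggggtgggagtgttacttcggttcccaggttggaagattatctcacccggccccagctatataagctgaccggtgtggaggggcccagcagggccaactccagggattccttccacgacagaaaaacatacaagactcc
AMOTL2: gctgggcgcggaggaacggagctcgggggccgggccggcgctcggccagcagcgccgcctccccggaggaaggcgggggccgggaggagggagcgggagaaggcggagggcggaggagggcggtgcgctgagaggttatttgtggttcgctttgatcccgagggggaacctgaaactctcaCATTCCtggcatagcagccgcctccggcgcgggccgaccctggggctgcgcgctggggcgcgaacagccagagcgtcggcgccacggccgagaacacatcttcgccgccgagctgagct
The CTGF window, chr6:131951323-131951622 on the minus strand, held 3 matches, at 169 to 164, 104 to 99 and 95 to 90 bases before the start. The ANKRD1 window, chr10:90921038-90921337 on the minus strand, held 2 matches, at 220 to 215 and 128 to 123 bases before the start. It also held 1 match to TGANTCA, at 195 to 189 bases. This is a loose form of the AP-1 letters that takes any base in the middle and reads the same on both strands. The middle base of this match is T. The AMOTL2 window of the downstream of its annotated starts, chr3:134374398-134374697 on the minus strand, held 1 match, at 69 to 64 bases before the start, and the window of the upstream start held 0. Among the coactivator and TEAD genes with an entry, the YAP1 window held 1 match and those of WWTR1, TEAD2 and TEAD3 held 0. Of all 35116 promoter windows, 4928 held at least 1 TEAD match, 1.37% held at least 2 and 0.128% at least 3. The loose pattern TGANTCA was found in 7.71%. A match is a run of letters and does not show that TEAD was bound in these cells.

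**Figure D3:**
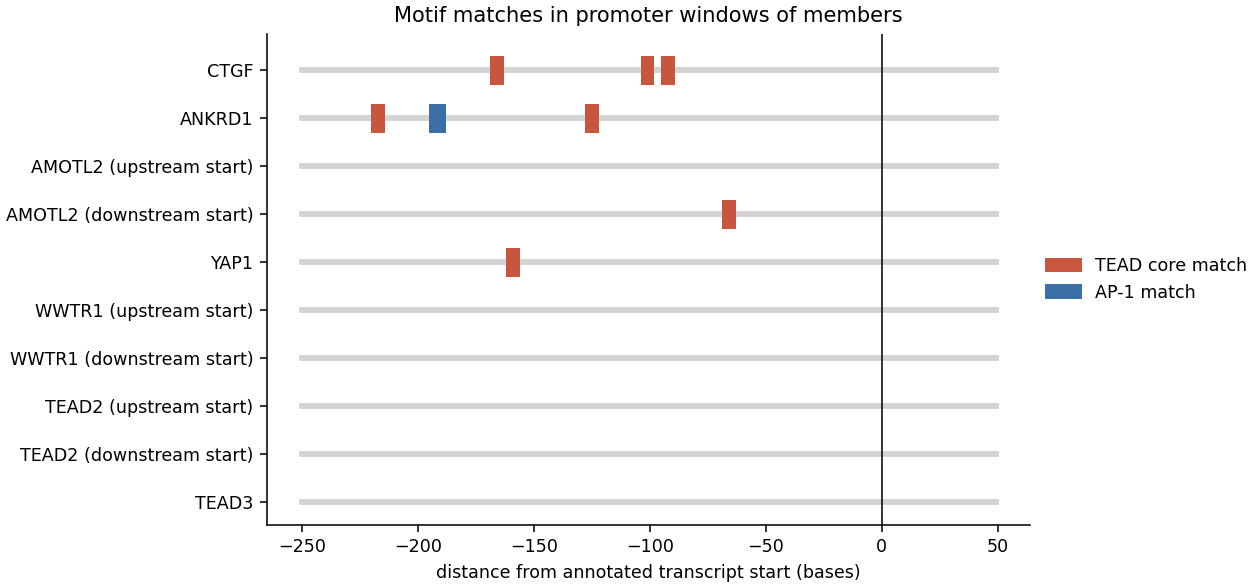
Position of TEAD core matches and of matches to the loose AP-1 letters TGANTCA (marked AP-1) in the promoter windows of the members. Distance is from the annotated start in bases, 1 line per window. CTGF holds 3 TEAD matches and ANKRD1 holds 2, all before the start.

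CYR61 had the highest level per length of all members in both lines. It stood at 960.1, 1109 and 1080 CPM in control and at 567, 655 and 715 CPM in resistant libraries. The groups did not overlap, and resistant replicate 1 was the lowest library. The log2 fold change was -0.70 ± 0.11 (adjusted p = 0.000102, edgeR), and after adjustment -0.36 ± 0.09 (adjusted p = 0.00441). CYR61 was lower in resistant cells under every scaling and every omission of a library that was run, and on the TMM scale its log2 values ran from -0.81 to -0.62 when 1 library was left out.

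CTGF, whose window held the most TEAD matches among the 7 members with an entry, was at 35.2, 39.6 and 37.4 CPM in control and at 23.1, 27.1 and 30.5 CPM in resistant libraries. The ranges did not overlap on the TMM scale, and the log2 fold change was -0.47 ± 0.13 (adjusted p = 0.00426, edgeR). After adjustment the levels were 31.9 ± 1.3 CPM (SD, n = 3) in control and 32.0 ± 4.9 CPM in resistant libraries and overlapped, with a log2 fold change of 0.0043 ± 0.11 (adjusted p = 0.974). With library size as the only scaling it was -0.13 (adjusted p = 0.353). AL133346.1, which has no row of its own, overlaps CTGF exons by 195 bases on the opposite strand in GENCODE release 29. CYR61 and CTGF are close paralogues, and the difference between them did not depend on the adjustment in direction. The ratio of CYR61 to CTGF per kilobase was 28.7 ± 0.8 in control and 24.6 ± 0.6 in resistant libraries, or 30.1 ± 1.1 and 23.4 ± 0.7 after adjustment, with no overlap on either scale (exact permutation p = 0.1 for both, the smallest possible).

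AMOTL2 was at 474, 480 and 481 CPM in control and at 253, 187 and 217 CPM in resistant libraries. The control libraries were close together, and the resistant ones lay below them with resistant replicate 1 the highest. The log2 fold change was -1.13 ± 0.12 (adjusted p = 2.94e-06, edgeR). After adjustment it was -0.17 ± 0.09 (adjusted p = 0.102), and without resistant replicate 1 the adjusted decrease passed the test (adjusted p = 0.00681). RPL39P5, which shares 187 exon bases with AMOTL2 on the same strand in GENCODE release 29, had 14 counts or fewer in every library.

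ANKRD1 was at 30.1, 22.9 and 22.1 CPM in control and at 21.1, 28.1 and 32.6 CPM in resistant libraries. The groups overlapped: resistant replicate 1 was the lowest of all 6 libraries and control replicate 1 the second highest. The log2 fold change was 0.12 ± 0.17 (adjusted p = 0.517, edgeR). After adjustment ANKRD1 was lower in resistant libraries (-0.41 ± 0.13, adjusted p = 0.0126), with 30.2 ± 4.3 CPM (SD, n = 3) in control and 22.7 ± 3.4 CPM in resistant libraries and no overlap. With library size as the only scaling it was higher (0.46, adjusted p = 0.0304), and on the TMM scale without resistant replicate 3 it was -0.026 (adjusted p = 0.905). The direction for ANKRD1 therefore differed between scalings and with 1 library left out. Summed per kilobase, the 4 targets reached 595 ± 34 CPM in control and 357 ± 33 CPM in resistant libraries, and 517 ± 16 and 415 ± 40 CPM after adjustment, a sum made up mostly of CYR61.

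**Figure D4:**
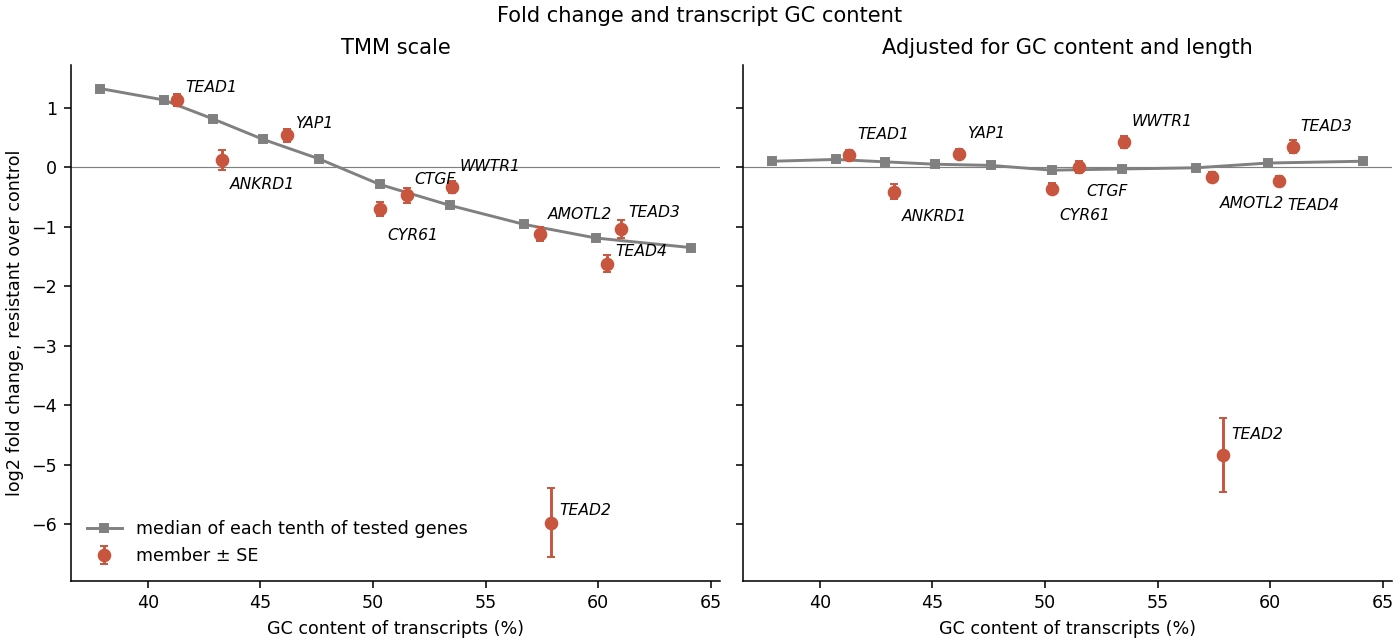
Log2 fold change of resistant over control (vertical axis) against GC content of transcripts in percent (horizontal axis), on the TMM scale (left) and after GC content and length adjustment (right). Coloured points are the 10 members with bars of 1 SE, and the line joins the medians of 10 equal bins of all 14216 genes with a GC value. On the TMM scale the line falls from 1.32 to -1.35, with YAP1 and TEAD1 on its low-GC side and TEAD3, TEAD4 and AMOTL2 on its high-GC side. ANKRD1 (43.3% GC) lies below the line at 0.12, and TEAD2 (57.9% GC) lies below it at -5.97.

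Ordered by level per kilobase of median transcript, the members in control libraries ran from CYR61 (458 CPM per kilobase) through WWTR1 (119.6), AMOTL2 (108), TEAD1 (47.1), TEAD4 (38.1), YAP1 (23.4), CTGF (15.98), ANKRD1 (12.7) and TEAD3 (9.38) to TEAD2 (1.21). Of these neighbours CTGF and ANKRD1 overlapped between libraries. In resistant libraries CYR61 (282 CPM per kilobase) again led, followed by TEAD1 (103) and WWTR1 (95.3), which overlapped, then AMOTL2 (49.7) and YAP1 (33.9). ANKRD1 (13.8), TEAD4 (12.4) and CTGF (11.5) followed and overlapped with their neighbours, ahead of TEAD3 (4.57) and TEAD2 (0.018). On this scale TEAD1 moved from the fourth place to the second and TEAD4 from the fifth to the seventh. On adjusted levels TEAD1 stood at 65.3 CPM per kilobase in control, the fourth place, and at 75.3 in resistant libraries, the third place and overlapping with AMOTL2, and TEAD4 held the sixth place in both lines. With the longest transcripts as lengths the order of AMOTL2, WWTR1, TEAD1 and TEAD4 differed, since WWTR1 and TEAD1 have long alternative transcripts.

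Genes around the members were described through lists of the Hippo pathway that hold 110 genes, of which 97 were tested. These included 42 higher and 38 lower genes on the TMM scale, and after adjustment 39 and 33, with 49 of 97 genes called in the same direction on both, beside 6427 of 14216 over all genes with a GC value. Without resistant replicate 1 the counts were 43 and 41 on the TMM scale, and 38 and 35 after adjustment. Of all tested genes 39.3% were higher and 36.9% lower on the TMM scale, and 35.3% and 30.5% after adjustment. These shares stand beside the counts of every list below. The median log2 fold change of all tested genes was 0.05 on either scale. Each gene below is given by its log2 fold change on the TMM scale and then after GC and length adjustment.

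Of the core kinases and their scaffolds 20 of 21 were tested, 14 were higher and 5 lower on the TMM scale (median 0.89), and 12 were higher and 1 lower after adjustment (median 0.35). The median GC content of this list was 44.5%. All genes in the bin of 44 to 46.4% GC had a median of 0.47 on the TMM scale and 0.05 after adjustment. STK3, a kinase that phosphorylates LATS, went from 22.7 ± 1.8 CPM (SD, n = 3) in control to 70.0 ± 3.1 CPM in resistant libraries, a change of 1.62 (0.48 after adjustment, called on both). TAOK1, which activates the STK kinases, was at 83.1 ± 13.6 CPM in control and 316 ± 58 CPM in resistant libraries, with values of 1.93 and 0.80. MAP4K5, a kinase that can act on LATS in parallel to STK3, had values of 1.97 and 0.84, called on both. TAOK2 was called lower on the TMM scale (-1.21) and not after adjustment (0.08). LATS1, the kinase that phosphorylates YAP1, was called higher on the TMM scale (1.08) and not after adjustment (-0.01). Its paralogue LATS2 was not called on the TMM scale (0.02) and was called higher after adjustment (0.35). These 2 genes were named after their values were seen.

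Of the upstream regulators, which link cell junctions, polarity and the cytoskeleton to the kinases, 26 of 29 were tested. Of these, 8 were higher and 13 lower on the TMM scale (median -0.34), and after adjustment 8 were higher and 10 lower (median -0.04). FJX1, a Golgi kinase of the protocadherin arm that also stands among the target genes, was lower with values of -2.07 and -0.58. AJUBA, a LIM protein that inhibits LATS, was at 263 ± 16 CPM in control and 102 ± 16 CPM in resistant libraries (-1.37 and -0.78). LLGL1, a polarity protein, was lower (-1.68 and -0.38). PATJ, a scaffold of the apical Crumbs complex, was higher (1.80 and 1.17).

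The STRIPAK phosphatase complex opposes the STK kinases, and the list also holds the ubiquitin ligase and casein kinase genes of YAP1 and TAZ degradation. Of its 17 genes 15 were tested, 7 were higher and 5 lower on the TMM scale (median 0.15), and 7 were higher and 6 lower after adjustment (median 0.05). SLMAP (1.76 and 0.62), STRN (1.90 and 0.95) and CTTNBP2NL (1.51 and 0.57), which are STRIPAK subunits, were higher. PPP2R1A, the scaffold subunit of the phosphatase, was lower, from 374 ± 31 CPM in control to 120.1 ± 19.4 CPM in resistant libraries (-1.64 and -0.71).

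The 7 genes of 14-3-3 proteins were all tested. On the TMM scale 1 was higher and 3 were lower (median -0.15), and after adjustment 1 was higher and 4 lower (median -0.37). With library size as the only scaling 2 were higher, and the 3 that were lower on the TMM scale did not pass edgeR's test (YWHAH -0.031, YWHAE -0.096 and SFN -0.35). YWHAZ was at 1091 ± 123 CPM in control and 1961 ± 56 CPM in resistant libraries and was called higher on the TMM scale (0.85) and not after adjustment (-0.03). YWHAH was called lower on the TMM scale (-0.37) and had a value of 0.03 after adjustment. YWHAE was lower on both scales (-0.44 and -0.83). SFN turned from lower (-0.69) to higher (0.78), and its call on the TMM scale was lost without control replicate 3 (-0.59, adjusted p = 0.0679, edgeR) or without resistant replicate 2 (-0.62, adjusted p = 0.0557).

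Among other cofactors of TEAD and the related actin-responsive factors, 8 of 11 genes were tested, 4 were higher and 2 lower on the TMM scale (median 0.44), and 3 were higher and 1 lower after adjustment (median 0.09). SRF, a factor that acts on many of the same target genes, was at 169 ± 2.2 CPM in control and 59.4 ± 6.3 CPM in resistant libraries (-1.51 and -0.28, called lower on both). With GC content alone adjusted, SRF did not pass edgeR's test (-0.19, adjusted p = 0.0552). Its actin-regulated coactivator MKL1 was called lower on the TMM scale (-1.34) and not after adjustment (-0.07). NCOA2 (1.43 and 0.56) and NCOA3 (1.11 and 0.41), steroid receptor coactivators that can bind TEAD, were higher.

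A list of 23 other genes described as YAP1 and TAZ targets had 22 tested genes, of which 7 were higher and 12 lower on the TMM scale (median -0.65), and 7 were higher and 13 lower after adjustment (median -0.48). In this list 16 genes had the same call on both scales. F3, which encodes tissue factor, was at 93.2 ± 12.5 CPM in control and 14.8 ± 0.8 CPM in resistant libraries (-2.65 and -3.26). MYOF, a membrane-repair protein, was at 351 ± 19 and 96.5 ± 1.6 CPM (-1.86 and -2.12). IGFBP3, a secreted binding protein of insulin-like growth factors, was at 3818 ± 36 and 1164 ± 44 CPM (-1.71 and -0.97). CCND1, the G1 cyclin, was lower (-1.62 and -0.53). RBMS3, an RNA-binding protein, was higher (1.45 and 1.49). For F3, MYOF and RBMS3 the fold change was as large or larger after adjustment.

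Of the other CCN genes, only NOV passed the filter on low counts, with 23, 4 and 9 counts in control and 54, 38 and 37 in resistant libraries, and it was higher (1.88 and 1.75, adjusted p = 0.00754 and 0.0132, edgeR). Control replicate 1 held most of the control counts of NOV, and without it the TMM value was 2.70. ANKRD2, an ANKRD1 paralogue of muscle, was at 1.29 ± 0.34 CPM (SD, n = 3) in control and 5.96 ± 1.09 CPM in resistant libraries (2.21 and 3.60, called higher on both). ANKRD23 was not called on the TMM scale (-0.07) and was called higher after adjustment (1.22).

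**Figure D5:**
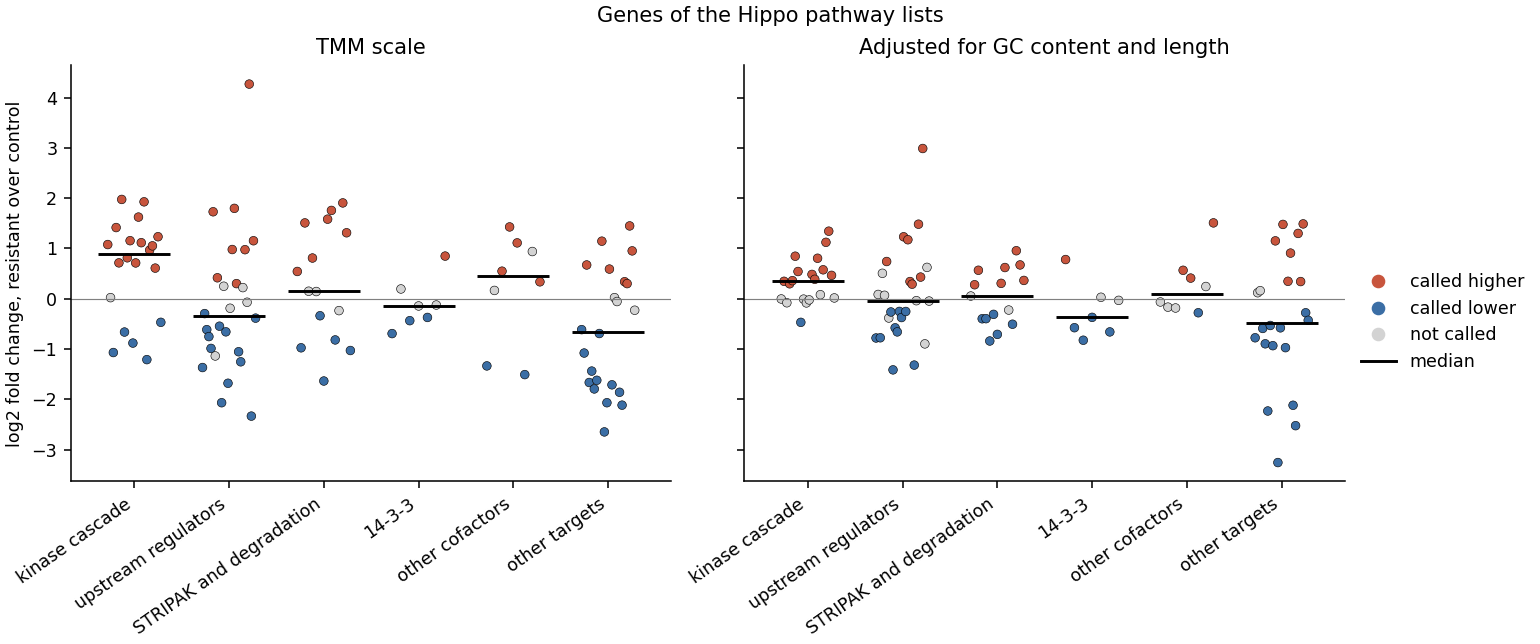
Log2 fold change of resistant over control for each tested gene of 6 Hippo pathway lists, on the TMM scale (left) and after GC content and length adjustment (right). Each point is a gene, coloured by its call, and black lines are medians. The median of the core kinases is 0.89 and then 0.35 after adjustment, and that of the other YAP1 and TAZ targets -0.65 and then -0.48.

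As a description of likeness, the genes whose log2 CPM over the 6 libraries followed YAP1 most closely were HELQ (Pearson r = 0.99915), ASAP1-IT2 (0.99913) and ZSCAN20 (0.99874), and 142 genes had a correlation over 0.99. For CTGF they were TNFRSF13C (0.99785), HSPB8 (0.99602) and LOC105371893 (0.9946), with 7 genes over 0.99. The 6 libraries fall into 2 lines, so these values mostly carry the difference between the lines.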

How the data were processed

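The authors deposited raw read counts per gene symbol, 1 column per library, for 3 control and 3 resistant libraries, and 0 sample columns were left unused. HISAT2 2.0.4 was among the tools per the submitters' processing notes. Not given in the sources used here are the counting program, its use of strand, the build and the annotation. Titles and phenotype labels gave the 2 groups. The members, the pathway lists and the rule for named genes were chosen with earlier results of these data known. That rule takes all 10 members, up to 4 tested genes of each list with the smallest p, the gene with the smallest p against the list's main direction, antisense and pseudogene rows of the members, and the 3 genes most like YAP1 and CTGF. The result for 1 of the marker genes is not reported here.

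Genes were kept by filterByExpr (16642 of 54261), scaled by TMM (factors 0.867 to 0.912 in control, 1.12 to 1.14 in resistant libraries) and compared with edgeR 4.0.16 in R 4.3.3 by the quasi-likelihood F test with Benjamini-Hochberg adjustment over all tested genes at 0.05. The size of each log2 fold change, divided by the square root of its F statistic, served as its standard error. GC content and length are medians over GENCODE release 29 basic transcripts, and 14216 tested genes (85.4%) had them, all 10 members included. For the adjustment, log2 CPM (prior count 1) of each library, centred per gene, was regressed on natural splines of GC content (6 df) and of log2 length (5 df), and the fitted trend became an offset. A difference between the lines that follows GC content for a biological reason is removed as well. Levels between genes were divided by median transcript length. The tests were tried on simulated counts with known answers, whose outcome is not reported here. Those counts held no length trend and no GC difference among libraries of the same line, unlike these data. The alternatives were other scaling factors, filters and DESeq2 1.42.0, GC content alone, a replicate block, and each library left out. Intervals and count floors hold for counting error alone, because reads copied by PCR are not separate molecules.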

Additional observations from a re-analysis of the deposited data

How the results depend on the processing

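Of 180 values for the 10 members under 18 alternatives each, 156 kept direction and call, 7 lost the call, 1 gained it and 16 turned direction. For the 29 other named genes the numbers were 488, 11, 0 and 22. Most of the changed member values came from the settings with a GC adjustment, which are fewer than the settings without one. The rest were WWTR1, CTGF and ANKRD1 with library size alone, and ANKRD1 without resistant replicate 3. The members called higher numbered 2 and those called lower 7 under the other scaling factors and filters and DESeq2, and 3 and 5 with library size alone. With GC content and length adjusted, with GC content alone adjusted, and with the replicate block and the GC content and length adjustment together, 4 were higher and 4 lower. Leaving out 1 library at a time gave 2 higher and 7 lower each time. Replicate numbers did not pair the libraries (correlation of deviations -0.13, -0.01 and -0.06 for the same number), and with the replicate block alone 2 members were higher and 7 lower, with no member call changed.

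Turned values are log2 fold changes after GC and length adjustment, then with GC content alone adjusted, with GC and length adjustment and the replicate block, and with GC and length adjustment without resistant replicate 1. They were 0.43, 0.31, 0.43 and 0.48 for WWTR1 (0.014 with library size alone), 0.34, 0.29, 0.34 and 0.34 for TEAD3, -0.41, -0.55, -0.41 and -0.32 for ANKRD1, 0.079, 0.18, 0.079 and 0.10 for TAOK2, -0.034, -0.14, -0.036 and -0.12 for YWHAZ, 0.78, 0.74, 0.79 and 0.74 for SFN, and 1.22, 1.18, 1.19 and 1.01 for ANKRD23. ANKRD23, which was not called on the TMM scale, also turned with library size alone (0.27), among genes with a GC value without adjustment (0.0099) and without resistant replicate 2 (range with 1 library left out -0.34 to 0.13). ANKRD1, also not called, turned without resistant replicate 3 (-0.026; range -0.026 to 0.27). CTGF had 0.0043 and, without resistant replicate 1, 0.086. YWHAH had 0.028 and, with the block, 0.029, and MKL1 had 0.015 with GC content alone. The summed TEAD level changed by -0.24 on the log2 scale with longest transcripts, and that of YAP1 and WWTR1 by 0.39 after adjustment, both chosen after seeing the data. The cause of the turns was not tested. Depth limits TEAD2 in resistant libraries, where at most 4 counts were found.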
